A study of Mus musculus with 9 samples.

Results

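The Notch receptors Notch1, Notch2 and Notch3, the ligands Jag1, Jag2, Dll1 and Dll4, the target genes Hes1 and Hey1, and Rbpj, the DNA-binding partner of the activated receptor, were followed across mouse stomach cell samples. They were taken as every probe set that the platform annotation pairs with exactly 1 gene, that gene being one of these 10. This gave 19 probe sets of the 34945 that name 1 gene and of the 45037 in the table. The study hybridised total RNA from 9 samples of C57BL/6 mouse stomach cells to 1 Affymetrix array each, in 3 groups of 3 named chief, isthmus and parietal. Chief samples are gastric corpus cells labelled Mist1+ Tomato+, Mist1 being a transcription factor that shapes secretory cells full of enzyme granules and Tomato a red fluorescent protein by which they were sorted in a flow cytometer. Isthmus samples carry the same Mist1+ Tomato+ label but were taken after Lgr5+ cells, marked by a receptor of the Wnt pathway, had been ablated. Parietal samples are gastric parietal cells, the acid-secreting cells. The alleles behind the reporter and the ablation, the age of the mice, the time after ablation and how parietal cells were obtained were not stated in the labels used.

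Notch is a receptor through which touching cells signal to each other. A Delta-like or Jagged ligand on the neighbouring cell pulls on the receptor, which is then cut by an ADAM protease and by gamma-secretase, and its intracellular part enters the nucleus and joins Rbpj to switch on targets such as the Hes and Hey repressors. In the stomach the pathway is known for its part in keeping progenitor cells dividing and in the choice between cell fates.

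Signal was read as a log2 value, so that a step of 1 stands for a doubling of signal, and levels are compared between groups for 1 probe set at a time, never between probe sets. A signal above the median of its own array, which lay between 5.80 and 6.70 log2, was taken as a stand-in for a signal above background. The test took in any probe set above it on 3 or more of the 9 arrays, which kept 17 of these 19 and 21393 in all. These 17 cover 9 of the 10 genes, and both probe sets of Dll4 were left out. Hey1 passed through the 3 parietal arrays and isthmus replicate 2, and Jag2 1426431_at through the 3 chief and 3 isthmus arrays. "Called" means an adjusted p under 0.05 by limma, with Benjamini-Hochberg adjustment over the 21393 probe sets. A dimmer group's array that fell below its own median was set to that median, which makes the fold a lower bound, written "at least". This bound concerns the dim signals only, and the scatter between arrays can allow a smaller fold. In bulk samples, fewer cells of a type and less RNA per cell cannot be told apart.

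The groups were checked against markers of their labelled cells. The chief marker list had 7 genes with a probe set, and its summed signal was 104631 to 149418 on the chief arrays, 29596 to 44428 on the isthmus arrays and 17720 to 29308 on the parietal arrays. Bhlha15, the gene of Mist1, stood at 10.75, 10.05 and 9.20 log2 on the chief arrays, but at 5.03, 1.34 and 7.36 on those of the isthmus, although these too are labelled Mist1+. The parietal cell list (7 genes) summed to 13637 to 24759 on the chief, 10212 to 19848 on the isthmus and 49278 to 60976 on the parietal arrays. Its proton pump subunit Atp4b was bright everywhere, at 11.97 to 12.80 on the chief and isthmus arrays and 14.09 to 14.35 on the parietal arrays. The anion transporter Slc26a7 was above the median on the parietal arrays only, at 11.68 to 12.06, and Slc9a4 had a lower mean in parietal (7.43) than in chief (8.95) or isthmus samples (7.88). Mucous neck and pit markers (6 genes) summed to 101703 to 127425, 68544 to 80947 and 42242 to 51557 in chief, isthmus and parietal samples. Endocrine markers (10 genes) summed to 36452 to 59332 in the chief and 17312 to 30842 in the isthmus samples, against 1810 to 2172 in the parietal samples. Markers of dividing cells (7 genes) summed to 7398 to 15104, 13985 to 20078 and 605 to 878 in the same order. Chief replicate 3 stood apart in fibroblast genes, with 5 of 8 above its array median, a summed signal of 26255 and Col1a1 at 12.48. Chief replicates 1 and 2 had 0 and 2 of 8 above it, each isthmus array 0 of 8 and each parietal array 1 to 2 of 8. Chief replicate 3 also had the highest summed signal of the 9 arrays for red blood cell (24401), leukocyte (700) and tuft cell markers (1782). Correlation between arrays over the tested probe sets was 0.777 to 0.875 within groups, 0.725 to 0.806 between chief and isthmus and 0.654 to 0.700 between parietal and either of them.

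**Figure D1:**
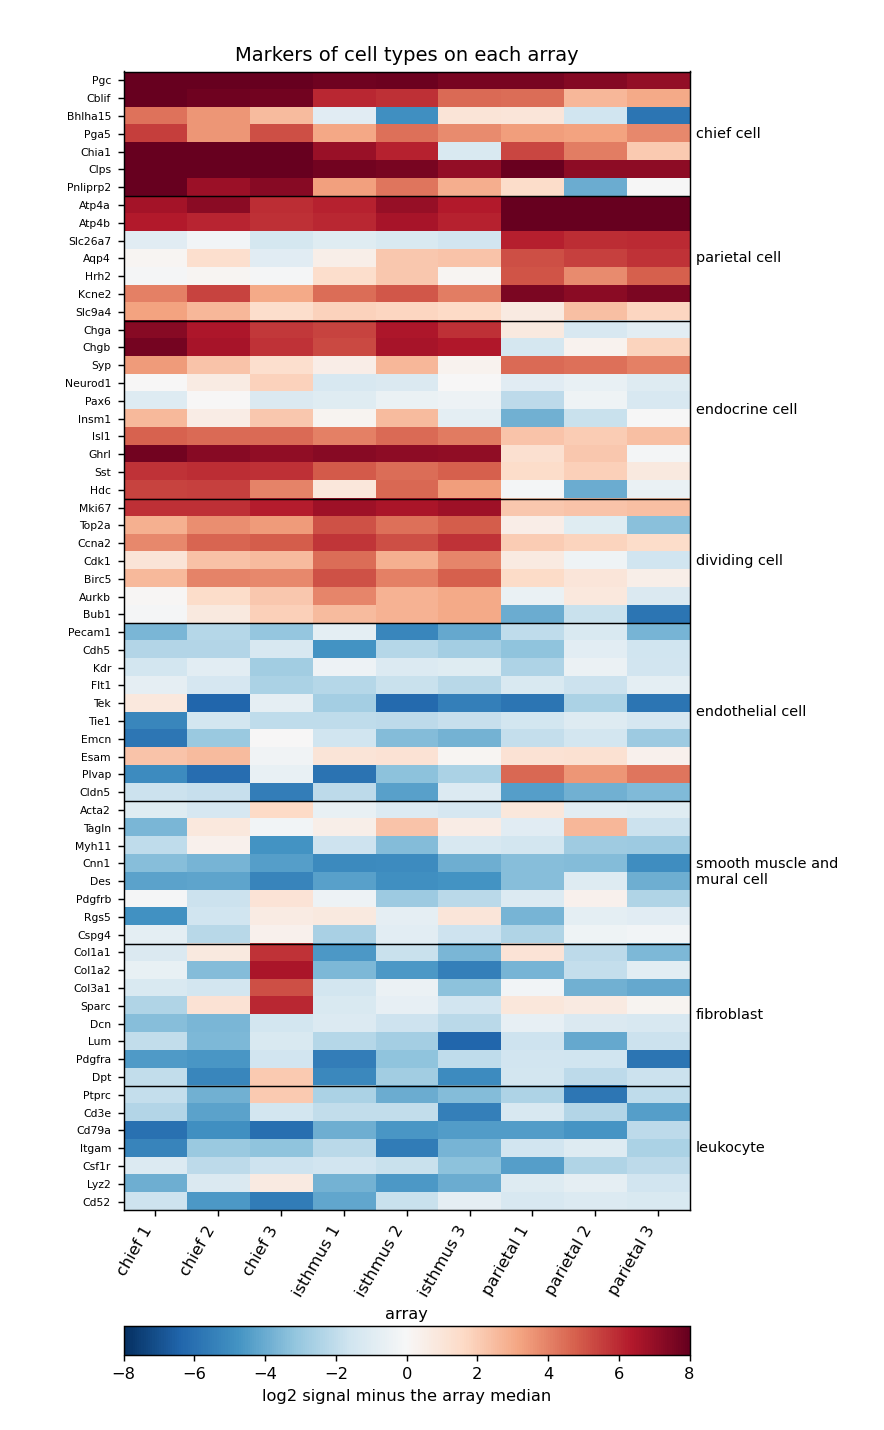
Markers of cell types on each of the 9 arrays. Each row is a gene (brightest probe set), each column an array, and colour gives the log2 signal minus the array median from -8 (blue) to 8 (red). Most endocrine markers, though not Syp, and the dividing cell markers are lower on the parietal arrays, Plvap is the deepest red of the endothelial markers there at 10.46, 9.34 and 10.13 log2, and chief replicate 3 is red for several fibroblast genes, with Col1a1 at 12.48.

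Parietal samples had less signal than chief samples for the receptors Notch1 and Notch2 and for probe sets of the ligands Jag1 and Jag2, while the target Hey1 was far higher. Of the 17 member probe sets tested, 6 fell and 1 rose, the latter being Hey1, which entered the test through the parietal arrays. Over all tested probe sets, 11.2% fell and 8.70% rose in this comparison. Counting only the brightest probe set of each gene, 2 of 9 fell and 1 rose, beside 13.1% and 10.2% of all genes. The median log2 difference of the 17 was -1.22, against -0.13 over all probe sets tested. Arrays of the groups did not overlap for 11 of the 17, with 10 lower and 1 higher in parietal samples, where the shares over all probe sets were 20.0% and 16.5%. Scaling matters here, because centring every array on its median moves the median difference over all probe sets from -0.13 to 0.56 and leaves 3 member probe sets lower.

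Against the isthmus samples the pattern was similar, with 4 of 17 member probe sets lower and 1 higher in parietal samples (12.4% and 10.1% over all probe sets). The 4 belong to Notch1, Notch2, Jag2 and Hes1, and the 1 is Hey1. By brightest probe set it was 3 of 9 lower and 1 higher, beside 14.9% and 11.7% of all genes. The median difference was -1.56, against -0.09 over all probe sets. Both comparisons use the same 3 parietal arrays, so their values for a gene are given side by side and are not independent of each other. Arrays did not overlap for 10 probe sets lower and 1 higher, with shares of 21.6% and 18.6% over all probe sets. The lower endocrine, dividing cell and mucous cell signals given above go with both comparisons, and their part in the differences was not tested.

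**Figure D2:**
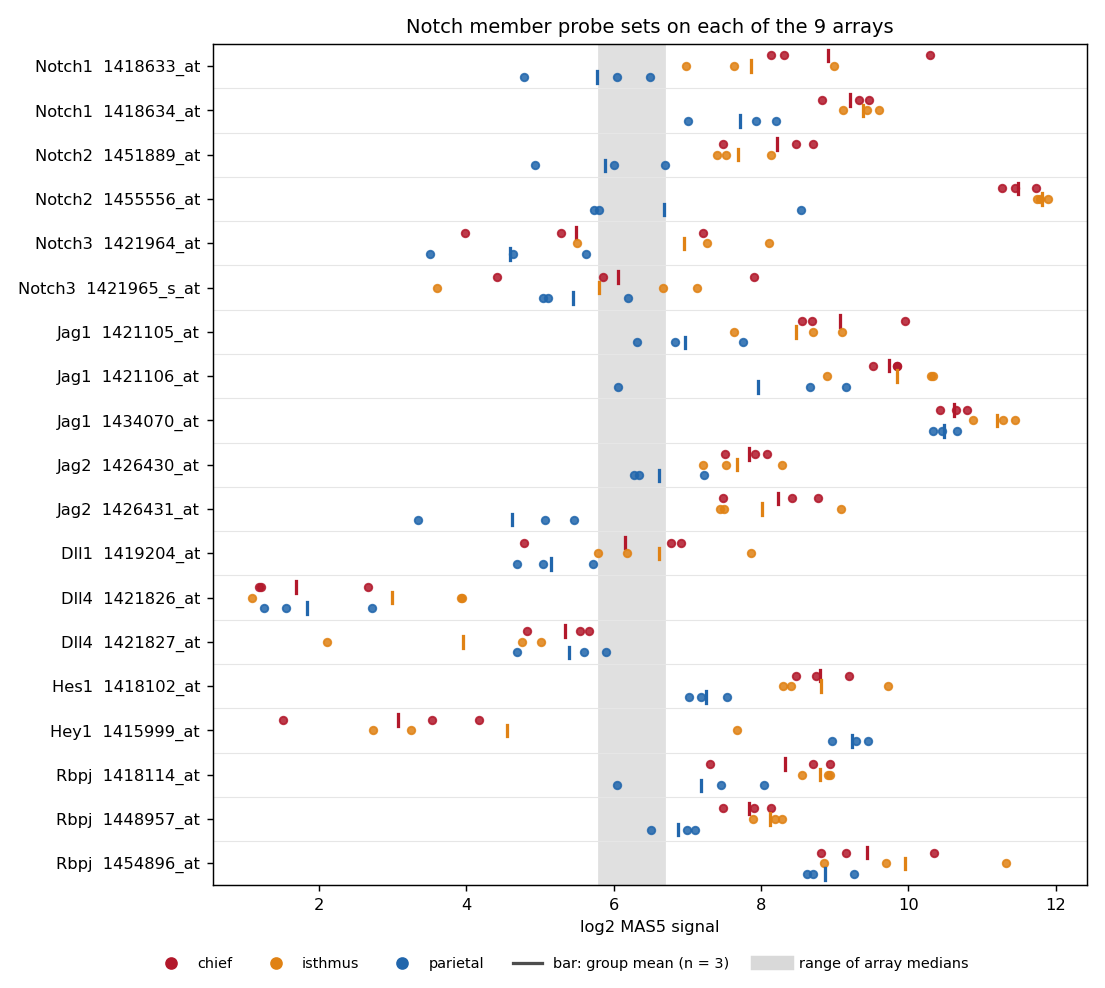
Log2 signal of the 19 member probe sets (rows) on each array, with 1 point per array, a bar at each group mean (n = 3) and a grey band from the lowest to the highest array median (5.80 to 6.70). Parietal points of Notch2 1455556_at and Jag2 1426431_at lie left of all others, those of Hey1 lie right of all others, and both Dll4 probe sets lie at or left of the band.

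The receptors come first. Notch2 is one of the receptors that the cell surface presents to ligands of neighbouring cells. Probe set 1455556_at read 11.27, 11.45 and 11.73 log2 in chief, 11.75, 11.89 and 11.78 in isthmus and 5.80, 8.54 and 5.73 in parietal samples. All 6 arrays of the Mist1+ groups were therefore bright and close together, and only parietal replicate 2 was above its array median among the parietal arrays. Signal was at least 26.6-fold lower in parietal than in chief samples (adjusted p = 0.000113 by limma) and at least 33.3-fold lower than in isthmus samples (adjusted p = 6.45e-05 by limma). Both calls held whichever single array was left out, the highest adjusted p being 0.000871 and 0.000507. The other probe set, 1451889_at, read 8.48, 7.49 and 8.70 in chief, 7.53, 7.40 and 8.13 in isthmus and 6.70, 4.94 and 6.01 in parietal samples. It too was lower on every parietal array, by at least 4.15-fold against chief (limma adjusted p = 0.0264), and missed the threshold against isthmus (adjusted p = 0.0724). Its call against chief ended without chief replicate 1 or 3 or parietal replicate 2 or 3 (limma adjusted p of 0.058 to 0.0938) and after quantile normalization (0.0696) or median centring (0.0841). Both Notch2 probe sets correlated at r = 0.70 over the 9 arrays.

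Notch1, the receptor best known for control of progenitor cells, also fell in parietal samples. Its probe set 1418634_at read 9.33, 8.83 and 9.47 in chief, 9.60, 9.11 and 9.44 in isthmus and 7.01, 8.21 and 7.93 in parietal samples. The parietal arrays were the lowest 3 and were still above their medians, so that the fold is measured on both sides. Signal was 2.82-fold lower than in chief (adjusted p = 0.0346 by limma) and 3.17-fold lower than in isthmus samples (adjusted p = 0.0185 by limma). The first call ended without chief replicate 1 or 3 or parietal replicate 1 or 3 (limma adjusted p of 0.0629 to 0.124) and in 5 other settings (0.0523 to 0.241), and the second without isthmus replicate 1 or 3 or parietal replicate 1 (0.0556 to 0.0728) and after median centring (0.0601). Probe set 1418633_at had 10.29, 8.13 and 8.31 in chief, 6.98, 7.64 and 8.99 in isthmus and 6.49, 6.04 and 4.79 in parietal samples. It was at least 6.87-fold lower in parietal than in chief samples (limma adjusted p = 0.0127), a call that ended without chief replicate 1 (0.0603) or parietal replicate 3 (0.0517). Against isthmus samples its log2 difference of -2.10 had a 95% interval of -3.78 to -0.41 and missed the threshold (limma adjusted p = 0.0716).

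Notch3, a receptor best known from the smooth muscle and pericytes around vessels, was near the array median and scattered. Its probe set 1421965_s_at read 4.42, 5.86 and 7.91 in chief, 7.13, 3.61 and 6.67 in isthmus and 5.04, 6.19 and 5.11 in parietal samples, so that all groups overlapped. The second probe set, 1421964_at, ranged from 3.98 to 7.22 in chief, from 5.50 to 8.11 in isthmus and from 3.51 to 5.63 in parietal samples. No comparison of either was called (limma adjusted p of 0.158 to 0.943), and the 95% intervals were wide, as for 1421965_s_at between parietal and chief, from -3.18 to 1.95. Chief replicate 3 was the highest chief array for both Notch3 probe sets. It was also the chief array with the most smooth muscle and mural markers above the median, 4 of 8, with Acta2 at 8.31 and Pdgfrb at 7.78. The part of these cells in the Notch3 signal was not tested.

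Among the ligands, Jag2, a Jagged ligand, was called lower in parietal samples by probe set 1426431_at only. Probe set 1426431_at read 7.49, 8.77 and 8.42 in chief, 9.08, 7.45 and 7.50 in isthmus and 3.35, 5.46 and 5.07 in parietal samples, where no array was above its median. Signal was at least 5.24-fold lower than in chief (adjusted p = 0.00629 by limma) and at least 4.51-fold lower than in isthmus samples (adjusted p = 0.00791 by limma). These calls held without any 1 array, the highest adjusted p being 0.0293 and 0.0459. This probe set entered the test through the chief and isthmus arrays, where it is high, so its p-values are a description and no separate support. The second probe set, 1426430_at, moved along with it over the 9 arrays (r = 0.91). It read 7.92, 8.08 and 7.51 in chief, 8.29, 7.22 and 7.53 in isthmus and 6.28, 7.23 and 6.35 in parietal samples. Its difference to chief of -1.22 log2 (95% interval -2.52 to 0.09) was not called (limma adjusted p = 0.184), nor was that of -1.06 to isthmus (limma adjusted p = 0.24).

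The 250 bases that RefSeq places before the transcription start are shown for Notch2 and Jag2, each with 1 probe set (1455556_at and 1426431_at) whose fall in parietal samples held without any single array. They come from the mouse build GRCm38.p6, Notch2 on the plus strand at chr3:98013288-98013537 and Jag2 on the minus strand at chr12:112929496-112929745, each written 5′ to 3′ along its gene. Capitals mark CACGNG, a site that Hes and Hey repressors bind, searched on both strands.
Notch2: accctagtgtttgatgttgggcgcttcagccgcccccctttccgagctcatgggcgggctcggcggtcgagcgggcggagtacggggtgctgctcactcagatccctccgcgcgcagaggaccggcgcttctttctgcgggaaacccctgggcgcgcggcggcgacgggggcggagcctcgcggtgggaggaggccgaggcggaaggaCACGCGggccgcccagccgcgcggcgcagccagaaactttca
Jag2: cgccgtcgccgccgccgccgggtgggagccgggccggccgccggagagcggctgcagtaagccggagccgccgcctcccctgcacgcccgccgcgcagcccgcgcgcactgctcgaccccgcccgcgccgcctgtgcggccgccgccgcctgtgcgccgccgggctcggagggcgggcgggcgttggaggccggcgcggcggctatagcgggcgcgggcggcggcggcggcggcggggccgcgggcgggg
The Notch2 stretch holds 1 such match, which begins 42 bases before the start, and the Jag2 stretch holds 0. Each holds 5 matches of the GC box GGGCGG, counted on both strands with overlaps allowed. The RBPJ core GTGGGAA was in neither, nor in any of the 10 promoters of the 8 member genes that the RefSeq table lists, and 5.42% of all 32851 promoters in the table hold it. CACGNG was in 6 of the 10 member promoters and in 23.5% of all, and the GC box in 5 of the 10 and in 32.7% of all. The targets Hes1 and Hey1 have no promoter in that table and were not searched. Dll1 and Rbpj each count more than once, and the Rbpj stretches overlap. A match describes letters only.

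Jag1, the other Jagged ligand, depended on the probe set. The brightest, 1434070_at, read 10.65, 10.79 and 10.43 in chief, 11.29, 11.45 and 10.87 in isthmus and 10.66, 10.33 and 10.45 in parietal samples. Chief and parietal arrays overlapped, and their difference of -0.14 had a 95% interval of -0.69 to 0.40 (limma adjusted p = 0.744). Every isthmus array lay above every array of the other groups, by 0.58 log2 over chief (95% interval 0.03 to 1.13; limma adjusted p = 0.29) and by 0.72 over parietal (limma adjusted p = 0.0568), with neither called. Probe set 1421105_at read 9.96, 8.69 and 8.56 in chief, 8.70, 9.10 and 7.64 in isthmus and 7.75, 6.32 and 6.84 in parietal samples. It was 4.29-fold lower in parietal than in chief samples (limma adjusted p = 0.0278), a call that ended without chief replicate 1 or parietal replicate 2 or 3 (0.0754 to 0.108), after quantile normalization (0.0707) and after median centring (0.121). The third, 1421106_at, was 3.43-fold lower (limma adjusted p = 0.0893) with arrays that did not overlap, at 9.52 to 9.85 in chief and 6.06 to 9.15 in parietal samples. Pairs of Jag1 probe sets correlated at 0.51 to 0.70, and whether they differ in their response was not tested.

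Dll1, a Delta-like ligand found on cells that turn to a secretory fate, was close to background. It read 4.78, 6.91 and 6.78 in chief, 5.79, 7.87 and 6.18 in isthmus and 5.04, 4.69 and 5.72 in parietal samples. Only 2 chief arrays and 1 isthmus array were above their medians and no parietal array was. No difference was called (limma adjusted p of 0.308 to 0.859), though all parietal arrays lay below all isthmus arrays. Dll4, the ligand best known from sprouting vessels, was not tested. Probe set 1421826_at read 1.10 to 3.94 over the 9 arrays and 1421827_at 2.11 to 5.90, with a signal above the median only for the second on parietal replicate 2. Their values correlated at -0.48 over the 9 arrays.

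Of the target genes, Hes1 fell and Hey1 rose between isthmus and parietal samples. Hes1, a repressor that Notch switches on in many progenitor cells, read 9.19, 8.47 and 8.75 in chief, 8.41, 9.73 and 8.30 in isthmus and 7.18, 7.03 and 7.54 in parietal samples. All parietal arrays lay below all others, while chief and isthmus means were 8.80 ± 0.36 and 8.81 ± 0.80 (SD, n = 3 each; limma adjusted p = 0.996). Signal was 2.96-fold lower in parietal than in isthmus samples (adjusted p = 0.0474 by limma), a call kept without chief replicate 1 (0.0499) and lost without any other single array (0.0513 to 0.198). It also ended after quantile normalization (0.112), median centring (0.119), with no filter (0.0737), with a pseudocount of 64 (0.0548), with only the arrays compared (0.0642) and with a replicate block (0.0725). The 2.93-fold difference to chief samples just missed the threshold (limma adjusted p = 0.0531).

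Hey1, a related repressor and Notch target known from the vessel wall, was the member with the largest spread of group means. It read 3.54, 1.51 and 4.17 in chief, 2.74, 7.68 and 3.25 in isthmus and 9.45, 8.97 and 9.29 in parietal samples. Every parietal array exceeded the highest of the others, which was isthmus replicate 2, the only Mist1+ array above its median. Signal was at least 6.53-fold higher in parietal than in chief samples (adjusted p = 0.00488 by limma), a call that held without any 1 array (adjusted p of up to 0.0251). Against isthmus samples it was at least 6.05-fold higher (adjusted p = 0.02 by limma), and this call ended without isthmus replicate 1 or 3 or any 1 parietal array (0.06 to 0.0733). Hey1 entered the test through the parietal arrays, where it is high, so its p-values are a description and no separate support. Both calls were kept with no filter. With the stricter filter, above the median on 6 arrays, Hey1 was not tested. Because Hey1 is also a gene of endothelial cells, their markers were read beside it. Of 10 endothelial markers, 2 were above the median on each parietal array, 1 to 2 on the chief and 1 on each isthmus array, with summed signals of 952 to 1635, 438 to 713 and 246 to 278. The parietal sum was carried by Plvap, a protein of vessel fenestrae, which read 10.46, 9.34 and 10.13 there and at most 6.10 elsewhere. Plvap passed the filter through the 3 parietal arrays alone, so these values are a description with no test. Esam, a junction protein also found outside vessels, was above the median on 8 arrays, all but chief replicate 3. Pecam1, Cdh5, Kdr, Flt1, Tie1 and Cldn5 were below the array median on all 9 arrays. Tek was at 0 on parietal replicates 1 and 3 and on isthmus replicate 2, and above the median on chief replicate 1 at 7.22, while Emcn was above it on chief replicate 3 alone. The part of endothelial cells in the Hey1 signal was not tested.

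Rbpj, which carries the signal to DNA, was present in all groups, and its 3 probe sets gave no call. Probe set 1454896_at read 10.35, 8.81 and 9.16 in chief, 11.32, 8.86 and 9.70 in isthmus and 8.62, 8.71 and 9.26 in parietal samples, with overlap throughout. The 1448957_at signals were 7.48 to 8.14 in chief, 7.89 to 8.28 in isthmus and 7.00, 6.51 and 7.10 in parietal samples, the parietal arrays being the lowest 3. Its parietal differences of -0.97 to chief and -1.25 to isthmus had 95% intervals of -2.14 to 0.19 and -2.41 to -0.09 (limma adjusted p = 0.237 and 0.117), and the second was called without an intensity trend (0.0259). For 1418114_at the differences were -1.14 and -1.62 (limma adjusted p = 0.238 and 0.0841).

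**Figure D3:**
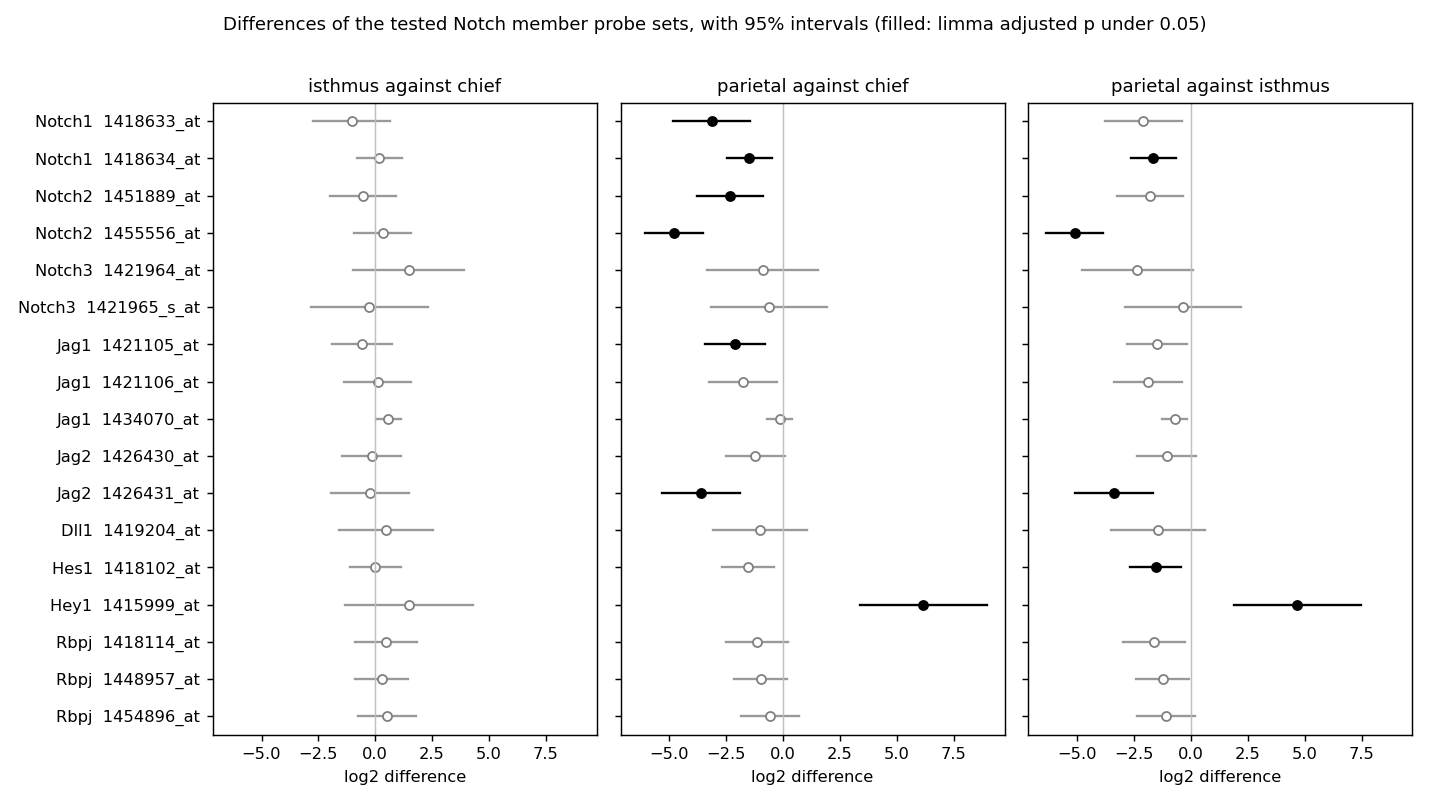
Log2 differences of the 17 tested member probe sets in the 3 comparisons, with points at the difference of group means (n = 3 each), lines for the 95% interval and filled points where limma's adjusted p is under 0.05. No point is filled for isthmus against chief, while against parietal samples Notch2 1455556_at (-4.79 and -5.12) and Hey1 (6.16 and 4.68) lie farthest from 0.

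Isthmus against chief compares Mist1+ Tomato+ cells with and without the ablation of Lgr5+ cells. No Notch member passed the test, 0 of 17 probe sets in either direction by limma, where 0.888% of all probe sets fell and 0.234% rose. The median difference was 0.17, against -0.003 over all probe sets, and 1 of the 17, Jag1 1434070_at, had an unadjusted p under 0.05. Of all 21393 probe sets tested, 3343 had such a p. Arrays did not overlap for Jag1 1434070_at and for Notch2 1455556_at, both higher in the isthmus samples, beside 9.29% of all probe sets. The Notch2 difference was 0.32 with a 95% interval of -0.94 to 1.59 (limma adjusted p = 0.835). Those of Hes1 and Hey1 were 0.01 (-1.12 to 1.14) and 1.48 (-1.32 to 4.29), so that changes of more than 2-fold in either direction lie within these intervals. This comparison does not show that the groups are alike in Notch genes. The differences of Hes1, Hey1 and Dll1 changed sign when isthmus replicate 2, the highest isthmus array for each of these, was left out, to -0.45, -0.08 and -0.17.

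Other genes of the pathway were taken from a list of 77, of which 71 had a probe set naming them alone and 53 were tested by their brightest one. Between parietal and chief samples 1 rose and 8 fell, and between parietal and isthmus samples 4 rose and 10 fell. For all genes the shares were 10.2% and 13.1% in the first and 11.7% and 14.9% in the second. Between isthmus and chief samples 0 rose and 1 fell, beside 0.317% and 1.07% of all genes. Counts for the single lists below are to be read beside these shares and describe single genes. The median differences were -0.13, -0.01 and 0.05, against -0.11, -0.09 and 0.03 over all genes.

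Receptors and ligands outside the members were mostly dim. Notch4, Dll3, Dlk1 and Cntn1 did not pass the filter, and of 3 tested, Dner, a transmembrane Notch ligand of neurons, fell. It read 9.41, 6.90 and 6.05 in chief, 6.71, 7.51 and 6.19 in isthmus and 2.44, 0.63 and 3.38 in parietal samples. Only 2 chief and 2 isthmus arrays were above their medians, so its p-values are a description and no separate support. The fold was at least 3.07 against chief and at least 1.95 against isthmus (limma adjusted p = 0.00623 and 0.0116), the latter lost with a pseudocount of 64 (0.0957).

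Furin, the protease that cleaves Notch receptors on their way to the surface and many other proproteins besides, was the only pathway gene called between isthmus and chief. Its signals were 14.09, 13.61 and 13.62 in chief, 9.71, 10.56 and 9.62 in isthmus and 11.83, 12.00 and 11.90 in parietal samples, so that the 3 groups were fully apart. It was 14.0-fold lower in isthmus than in chief samples (limma adjusted p = 1.44e-05), 3.64-fold lower in parietal than in chief (0.000184) and 3.85-fold higher in parietal than in isthmus samples (0.00012). All 3 calls held without any 1 array, with a highest adjusted p of 0.00135. Rfng, a glycosyltransferase that modifies Notch, fell 2.65-fold between parietal and chief samples (limma adjusted p = 0.0316), but not without chief replicate 1 or 3 or any 1 parietal array (0.0557 to 0.117), after quantile normalization (0.0531) or after median centring (0.273), and its second probe set was not called (0.282).

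Ligand endocytosis (6 genes tested) and receptor cutting (7) gave 1 call each, both between parietal and isthmus samples. The shares of all genes there were 14.9% lower and 11.7% higher. Neurl3, of the Neuralized family of ubiquitin ligases, read 6.70, 6.22 and 7.99 in chief, 10.59, 9.57 and 9.19 in isthmus and 6.62, 5.15 and 5.38 in parietal samples. It was at least 12.9-fold lower in parietal than in isthmus samples (limma adjusted p = 0.00103). Between isthmus and chief samples its arrays did not overlap either, at least 6.57-fold higher, but the test was missed (limma adjusted p = 0.073), and it passed with a pseudocount of 16 or 64 (0.047 and 0.0287) or after median centring (0.0451). Aph1b, a subunit of gamma-secretase, was at least 5.15-fold higher in parietal than in isthmus samples (limma adjusted p = 0.0117), lost without parietal replicate 2 (0.0575). The group means were 8.01 in chief, 4.19 in isthmus and 8.52 in parietal samples. Parietal against chief was not called (limma adjusted p = 0.795), nor was isthmus against chief (0.116). Its second probe set was not called (limma adjusted p = 0.421), with isthmus values of 8.03, 2.59 and 5.12 that overlapped all other groups.

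Receptor endocytosis and turnover held 3 genes lower and 1 higher in parietal than in isthmus samples, of 9 tested. Of all genes, 14.9% were lower and 11.7% higher. Dtx4, a Deltex ubiquitin ligase that acts on Notch, read 9.67, 9.81 and 9.71 in chief, 10.89, 9.90 and 10.52 in isthmus and 7.07, 7.32 and 6.10 in parietal samples. It fell 7.46-fold against chief and 12.2-fold against isthmus (limma adjusted p = 0.000632 and 0.000116), and its second probe set fell by at least 24.3-fold and 33.5-fold (2.92e-05 and 1.68e-05). Nedd4, a ubiquitin ligase of many membrane proteins, fell 2.78-fold and 2.42-fold (limma adjusted p = 6.51e-05 and 0.000169), with all 3 of its probe sets called in both comparisons, one of them not after median centring (0.122 and 0.104) nor, against isthmus, with no trend (0.0586). Dtx3l, another Deltex family member and an interferon-induced gene, was 10.3-fold lower in parietal than in isthmus samples (limma adjusted p = 0.0438). That call was lost without any 1 isthmus array or without parietal replicate 1 or 3 (0.0788 to 0.139). It was also lost with no filter (0.0689), with no trend (0.12) and after quantile normalization (0.0698). Dtx3l means were 6.56 in chief, 10.63 in isthmus and 7.26 in parietal samples, and parietal against chief was not called (0.712). Dtx3 was at least 1.24-fold higher in parietal than in isthmus samples (limma adjusted p = 0.0323). This call was lost without isthmus replicate 2 or 3 or any 1 parietal array (0.0642 to 0.11). It was also lost with only the arrays compared (0.0559), with a pseudocount of 64 (0.0603) and with a replicate block (0.0527). Dtx3 means were 6.71 in chief, 3.46 in isthmus and 6.46 in parietal samples, and parietal against chief was not called (0.887).

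Of 6 nuclear coactivators tested by their brightest probe set none was called by limma in any comparison. An unadjusted limma p under 0.05 was met by 2 between parietal and isthmus and 0 in the other comparisons. Of all 11053 genes it was met by 4316 between parietal and isthmus, 4043 between parietal and chief and 1955 between isthmus and chief. By this probe set Crebbp, a histone acetyltransferase, stayed within 11.52 to 12.00 over the 9 arrays. A dimmer Crebbp probe set averaged 8.24 in chief, 9.10 in isthmus and 9.04 in parietal samples, with the chief arrays below all others. Neither difference to chief was called (limma adjusted p = 0.35 and 0.214), though the parietal one was after median centring (0.0272). Kat2b, another histone acetyltransferase, stayed within 9.93 to 11.44 by its brightest probe set. This Kat2b probe set was called higher in parietal samples after median centring (limma adjusted p = 0.04 and 0.0213 against chief and isthmus) and, against isthmus, without isthmus replicate 2 (0.0397). A dimmer Kat2b probe set read 7.29, 7.61 and 7.72 in chief, 7.97, 9.15 and 8.11 in isthmus and 9.72, 10.01 and 9.02 in parietal samples. It was called 4.12-fold higher in parietal than in chief samples (limma adjusted p = 0.0108), but not without parietal replicate 2 (0.0545). The third Kat2b probe set went the other way and was not called (limma adjusted p = 0.172). It read 7.55, 8.25 and 7.57 in chief and 0.97, 7.06 and 6.48 in parietal samples. Kat2b thus differed by probe set. Of 11 corepressors Hdac1, a histone deacetylase, was 2.37-fold lower in parietal than in isthmus samples (limma adjusted p = 0.00628). Against chief samples Hdac1 was not called (limma adjusted p = 0.0743).

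Of the 14 other targets 7 were tested, and Hes2, Hes3, Hes5, Hes7, Hey2, Heyl and Gata3 did not pass the filter. Nrarp, a Notch target that feeds back to restrain the pathway, was lower on every parietal array. It read 9.06, 9.54 and 8.05 in chief, 9.71, 9.39 and 9.35 in isthmus and 4.72, 6.50 and 6.25 in parietal samples. It was at least 6.42-fold lower in parietal than in chief and at least 9.74-fold lower than in isthmus samples (limma adjusted p = 0.00328 and 0.000846), and both calls held without any 1 array. Its second probe set was 0.23, 7.74 and 7.81 in chief, 7.97, 9.07 and 8.81 in isthmus and at most 3.15 in parietal samples, and was called only against isthmus (limma adjusted p = 0.00998). Against chief it was not (0.138), but it was without chief replicate 1 (0.00278). Ccnd1, cyclin D1, and Myc, a growth regulator, fell 5.38-fold and 2.94-fold between parietal and isthmus samples (limma adjusted p = 0.00135 and 0.00894). Against chief neither this Ccnd1 probe set nor Myc was called (limma adjusted p = 0.161 and 0.0784). A dimmer Ccnd1 probe set was called lower against chief (limma adjusted p = 0.00799), though not after median centring (0.0598). The third Ccnd1 probe set was not called there (0.0683). The p53 target and cell cycle inhibitor Cdkn1a rose 2.76-fold against chief and 2.18-fold against isthmus samples (limma adjusted p = 0.000292 and 0.00152). Id1, which is also a target of BMP signals, fell 2.21-fold and 2.28-fold (limma adjusted p = 0.0392 and 0.0305). Its first call was lost without any 1 parietal array, chief replicate 2 or 3 or isthmus replicate 3 (0.0538 to 0.128), and in 5 other settings (0.0538 to 0.363). The second was lost without any 1 parietal array or isthmus replicate 2 or 3 (0.0529 to 0.116), and in 3 other settings (0.0558 to 0.0905). The remaining call, named after its values were seen, was Sox9, 1.87-fold lower in parietal than in chief samples (limma adjusted p = 0.0201). That call was lost without chief replicate 3 or parietal replicate 2 or 3 (0.056 to 0.0828), with no trend (0.0738) and after median centring (0.569). Against isthmus samples Sox9 was not called (limma adjusted p = 0.0671). A dimmer Sox9 probe set overlapped between the groups and was not called (limma adjusted p = 0.429 against chief and 0.464 against isthmus). These genes also answer to other pathways, and Myc, Ccnd1 and Cdkn1a are tied to the cell cycle, whose markers were lower on the parietal arrays as given above. That part was not tested.

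**Figure D4:**
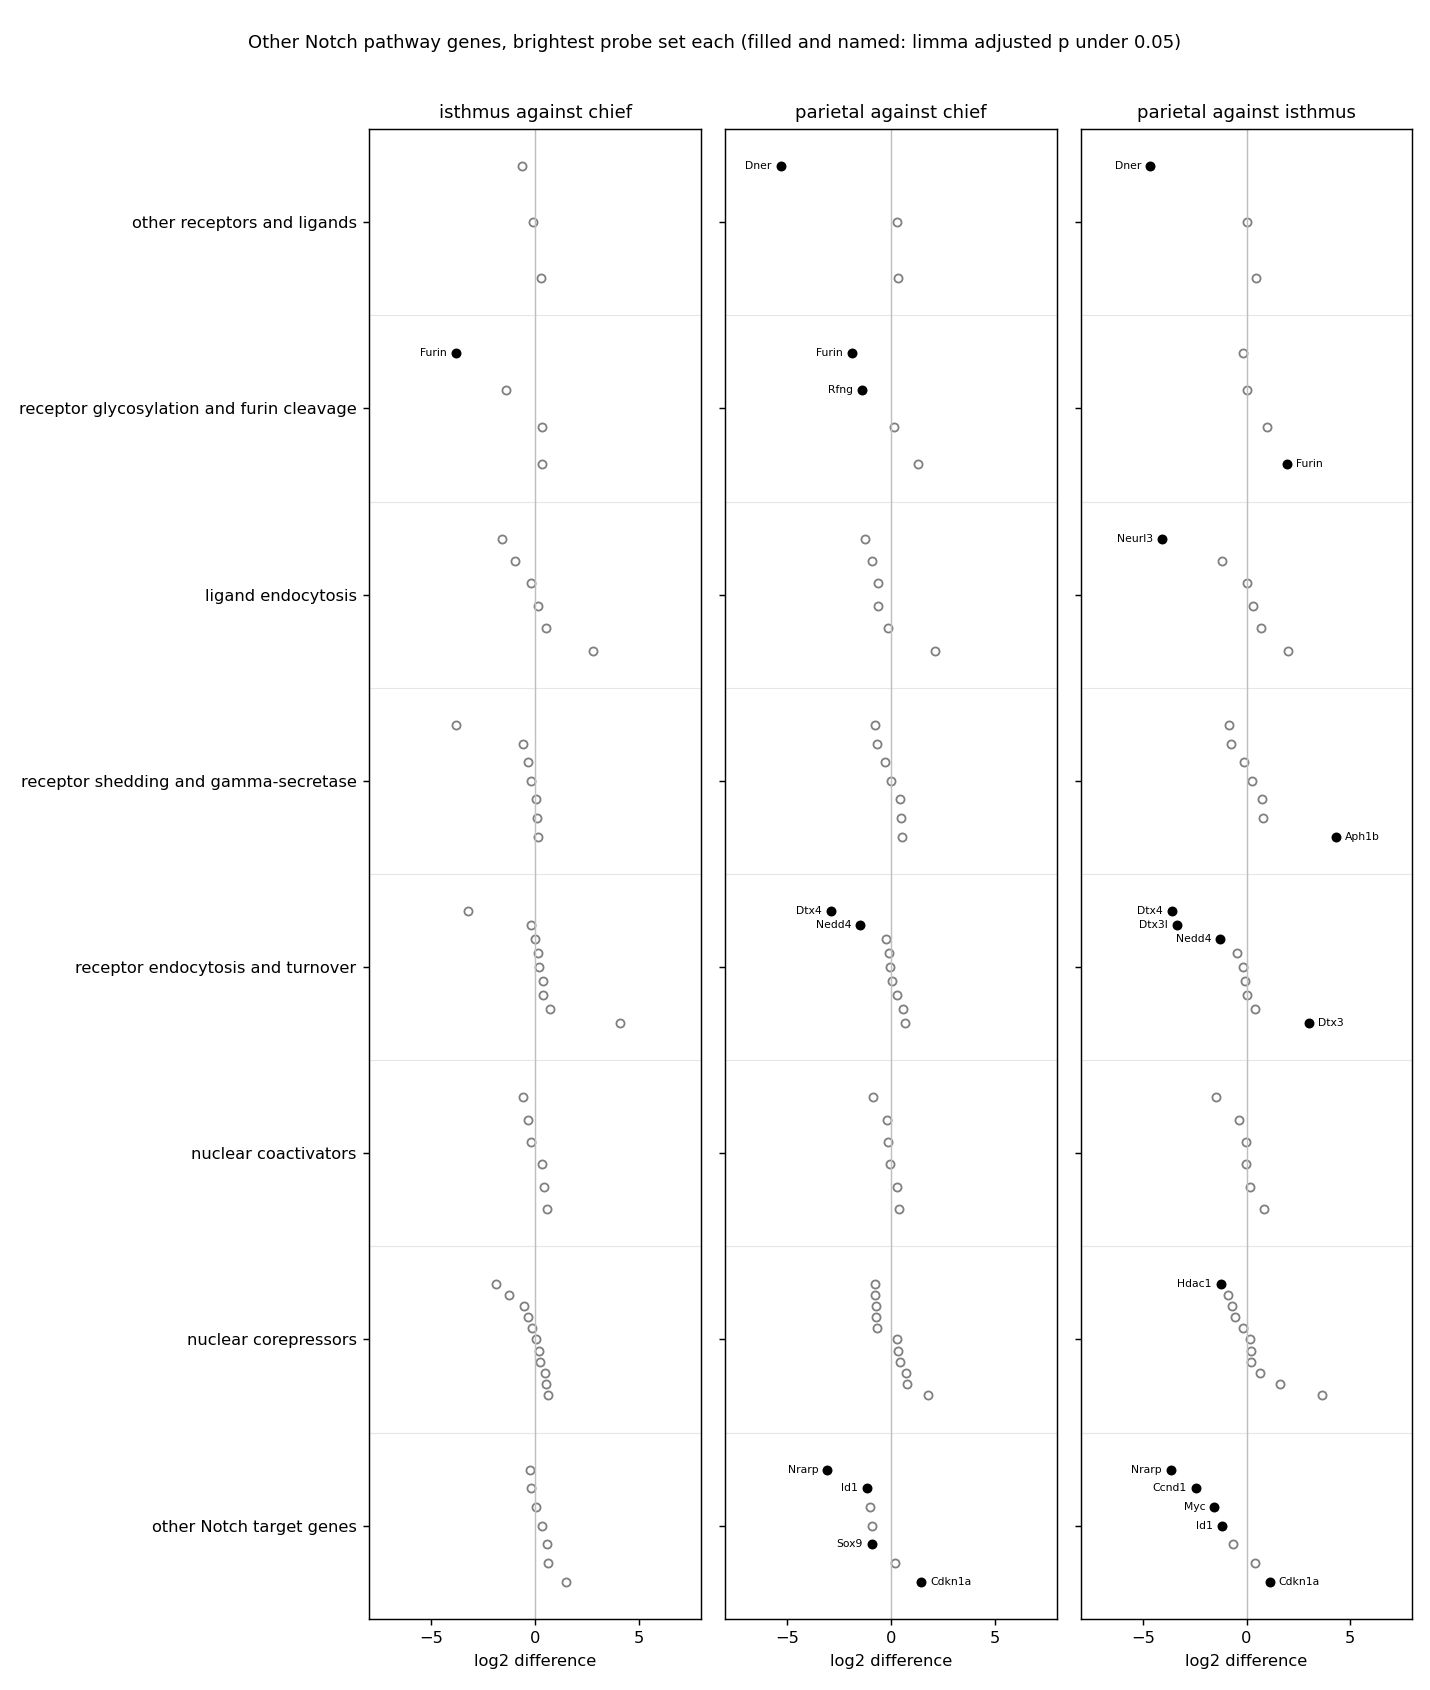
Log2 differences of the 53 other pathway genes tested, by list, in the 3 comparisons, with 1 point per gene (brightest probe set, groups of n = 3) and filled, named points where limma's adjusted p is under 0.05. Furin (-3.81) is the only filled point for isthmus against chief, and Nrarp (-3.06 and -3.66) and Dtx4 (-2.90 and -3.61) are filled on the lower side in both parietal comparisons.

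Genes with the most similar course over the 9 arrays were sought for Hes1 and for Hey1, the member with the widest range of group means (6.16 log2), among the brightest probe sets of 10563 named genes. For Hes1 they were Plxnc1 (r = 0.960), Dgka (0.957), Prune2 (0.956), Rab3c (0.954) and Leng9 (0.942), all lowest on average in the parietal samples. Dgka, a diacylglycerol kinase, had group means of 9.39, 9.01 and 6.81 in chief, isthmus and parietal samples. For Hey1 they were Nrd1 (0.992), Kcmf1 (0.976), Iah1 (0.974), Lonrf1 (0.972) and Apoa4 (0.968). Like Hey1, each of these 5 was highest in isthmus replicate 2 among the isthmus arrays and higher still on all parietal arrays except Kcmf1, which reached 12.21 in isthmus replicate 2 and 12.28, 12.14 and 12.22 in the parietal samples. Apoa4, an apolipoprotein, read 6.76, 9.02 and 6.03 in isthmus and 12.93, 12.37 and 12.62 in parietal samples. These correlations describe 9 arrays that fall into groups and carry no test.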

How the data were processed

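The authors deposited a log2 value for every probe set on every array, computed with MAS5 per the submitters' processing notes. Nothing used here states the MAS5 version, the log step or the floor at 0. Base 2 was taken because it makes the trimmed mean signal nearly equal across arrays. Groups and replicate numbers come from sample titles. Gene names come from the platform annotation. Of 45037 probe sets, 34945 named 1 gene, 932 several and 9160 none, and 34741 were matched by Entrez identifier to RefSeq (GRCm38.p6) with 0 symbols changed. Some listed genes are not reported here.

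The test was limma 3.58.1 (lmFit, contrasts.fit, eBayes with an intensity trend) in R 4.3.3 on the log2 values unaltered, with 1 mean per group over all 9 arrays (6 residual degrees of freedom), two-sided, and Benjamini-Hochberg adjustment over 21393 probe sets in each comparison. It was tested on simulated data. A gene was represented by its brightest tested probe set (11053 genes). Among called probe sets, Hey1, Jag2 1426431_at, Dner, Aph1b and Dtx3 passed the filter with no array above its median in a dimmer group. So did the second probe sets of Dtx4 and Nrarp. Where the dimmer group had no such array, these p-values are a description and no separate support. Beyond the members, the named genes are up to 3 called genes with the largest difference per list and comparison, or the 2 brightest where a list had no call by brightest probe set. A gene named through 1 comparison is also given in the other parietal comparison where it was called there. Results that were not called are given for some genes only. The members and lists were chosen with earlier results of these data known. The number of arrays limits the precision. The labels do not say whether samples are separate animals, and p-values therefore reflect the scatter of these samples alone, perhaps a technical one. Alternatives were pseudocounts of 16 and 64, quantile normalization, median centring, no filter or a stricter one, 1 probe set per gene, only the groups compared, no trend, a replicate block and leaving out each array.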

Additional observations from a re-analysis of the deposited data

How the results depend on the processing

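Median centring shifted the median difference of all probe sets to 0.37, 0.56 and 0.22 (isthmus against chief, parietal against chief, parietal against isthmus). It left 3 and 2 member probe sets lower in parietal samples, where 6 and 4 were reported. Other pathway genes called higher then numbered 3, 10 and 10 instead of 0, 1 and 4, and those lower against chief 5 instead of 8. Shares over all probe sets or genes are not given for the alternative settings. The counts in this section therefore describe the settings and are not a result about Notch genes. Against chief, 3 member probe sets were lower after quantile normalization, and 3 with 1 probe set per gene, of Notch1, Notch2 and Hes1, of which Hes1 was not among the 6. Other pathway genes higher in parietal than in chief samples were 3 with a pseudocount of 64 and 2 after quantile normalization or with a replicate block. Those higher in isthmus than in chief samples were 1 and 2 with pseudocounts of 16 and 64, and those lower were 2 with no trend. Above the median on 6 arrays, Hey1 was not tested and 0 members were higher in parietal samples. Leaving out 1 array gave 2 to 7 member probe sets lower against chief (2 without chief replicate 1 or parietal replicate 3), 3 to 4 lower and 0 to 1 higher against isthmus (0 without isthmus replicate 1 or 3 or any parietal array). For other pathway genes it gave 1 to 3 higher and 5 to 8 lower against chief (5 without parietal replicate 2 or 3), and 2 to 6 higher against isthmus (2 without parietal replicate 2).

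With the replicate block, 5 and 3 member probe sets were lower and 1 and 1 higher in parietal samples. Same-numbered arrays deviated from their group means with correlations of -0.02 to 0.06, and 4 of 9 arrays correlated best with their own number, so the numbers were not taken as pairs. No called difference changed sign. Among those not called, centring turned Notch3 1421965_s_at to 0.12 (isthmus against chief) and 0.08 (parietal against chief), Jag1 1434070_at to 0.55 and Rbpj 1454896_at to 0.12 (both parietal against chief), and Jag2 1426430_at and 1426431_at to 0.22 and 0.16 (isthmus against chief). Quantile normalization turned Notch3 1421965_s_at to 0.02 and Jag2 1426430_at to 0.004 (isthmus against chief). Without 1 array, Notch3 1421965_s_at ranged from -1.08 to 0.84 (isthmus against chief), -1.44 to 0.31 (parietal against chief) and -1.45 to 0.31 (parietal against isthmus). Between isthmus and chief the ranges were -0.02 to 0.31 for Notch1 1418634_at, -0.14 to 0.58 for Jag1 1421106_at, -0.46 to 0.07 and -0.75 to 0.06 for Jag2 1426430_at and 1426431_at, -0.23 to 0.87 for Dll1, -0.45 to 0.27 for Hes1, -0.08 to 2.39 for Hey1, and -0.02 to 0.79 and -0.16 to 1.07 for Rbpj 1418114_at and 1454896_at. The cause of these changes was not tested. Signals near the array median limit Notch3, Dll1 and Dll4.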

Other observations

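Isthmus replicate 2 was the only isthmus array with Hey1 above its median (7.68 log2), and the same array had Hey2, a related repressor, at 7.59, against 5.15 and 0.00 in the other isthmus samples and 0.23 to 0.93 in the parietal samples. It was also the highest isthmus array for Hes1 (9.73) and Dll1 (7.87). These genes were picked after their values were seen. Among the isthmus arrays, replicate 2 also had the highest summed chief (44428), parietal (19848) and endocrine markers (30842). Its dividing cell markers were the lowest of the isthmus arrays (13985). The part of such cells in these signals was not tested.

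Rbpjl, the paralog of Rbpj that works in the acinar cells of the pancreas, was looked up after the values had been seen and did not pass the filter. Its brighter probe set read 7.33, 6.60 and 3.99 in chief, 3.66, 6.10 and 4.29 in isthmus and 4.55, 3.16 and 3.81 in parietal samples, above the median only on chief replicates 1 and 2. Its other probe set was below the median on all 9 arrays, at 0.66, 5.16 and 1.49 in chief and at most 5.31 elsewhere.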
